A study of Caenorhabditis elegans with 15 samples.

Results

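The 3 libraries described here came from untreated L4 nematodes, the control group of a series of 15 libraries in 5 groups of 3. The other groups of the study received sucrose, stearic acid, both, or both with resveratrol, and were not used here. The control worms were Caenorhabditis elegans of the wild-type N2 strain, raised on plates with the OP50 strain of Escherichia coli as food after the eggs had been synchronized with hypochlorite. RNA came from the whole body and was turned into TruSeq libraries. The control libraries are called rep1, rep2 and rep3 after their labels, and the study's text calls them biological replicates. No source used here says whether they came from separate cultures, so the spread between them may be technical in part. All 16196 genes of the table of the whole series were examined in the 3 libraries, as the count of fragments per gene and as FPKM (fragments scaled to transcript length in kilobases and to the depth of the library). No group was compared with another, and no test was run.

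The L4 is the last larval stage of C. elegans. During it the germ line makes sperm before it turns to oocytes, the vulva forms, and the epidermis secretes the adult cuticle before the final moult, which is built largely of collagens. Each larval cycle also brings a wave of transcripts for cuticle, moulting and secreted proteins. A whole-body library mixes all tissues, and fewer cells of a type and less RNA per cell cannot be told apart in it.

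The libraries held 20024648 (rep1), 19433436 (rep2) and 19907319 (rep3) counts. Means are given ± SD over these libraries (n = 3). Rep3 stood apart from the other libraries in the spread of gene counts described below. Rep1 stood apart in the handling of low counts. It listed 588 genes with exactly 1 count, against 395 in rep2 and 397 in rep3. In rep1, 21 genes had 0 counts but an FPKM above 0, against 560 in rep2 and 505 in rep3. Over the whole series this number was 15 to 23 in 5 libraries and 505 to 604 in the other 10, so detection at 1 count was not comparable between rep1 and the other control libraries.

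Marker genes of the worm's main tissues were read in the libraries as a check of the labels. All 5 pharyngeal muscle markers, all 6 oocyte markers and all 7 collagens that the heterochronic factor LIN-29 turns on in the L4 epidermis had counts in every library. The L4 collagen col-38 had 187, 207 and 223 FPKM in rep1, rep2 and rep3, and bli-2, a collagen whose loss blisters the adult cuticle, had 48.0, 44.2 and 56.0 FPKM. Markers of the adult stage were also present. They summed to 1190, 1247 and 1865 FPKM in rep1, rep2 and rep3, above the 636, 663 and 744 FPKM of the 7 L4 collagens. Both sets hold different genes, so the markers alone do not settle the stage. The adult collagen col-19 was at 407, 519 and 791 FPKM, and the yolk protein gene vit-2 at 282, 259 and 377 FPKM. The early embryo markers end-1, end-3, tbx-35 and pes-10 summed to 3.50, 1.69 and 5.32 FPKM. Several defining markers, among them unc-54, act-5, lin-26, glh-1 and gld-1, were not analysed here.

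Of the 16196 genes listed, 13919 (85.9%) had at least 1 count in each control library, 15442 had at least 1 count in any of them and 754 had none. Single libraries reached 15039 genes in rep1, 14574 in rep2 and 14385 in rep3 at that minimum. At a minimum of 10 counts the libraries came closer, with 12742, 12813 and 12704 genes, and 12273 genes (75.8%) met it in all 3. An FPKM of at least 1 was reached in all 3 libraries by 12118 genes, at least 100 by 1752 genes and at least 1000 by 207 genes. A count of 0 allows a share of up to 1.54e-05% of a library (3 counts, in rep2, the shallowest). Intervals and floors cover counting error only.

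Chemoreceptors, the 7-transmembrane receptors with which the worm's sensory neurons smell and taste, made up 1002 of the listed genes and 269 of the 754 at 0 (35.7%). In 899 of them (89.7%) the mean count was under 10, and 259 had a count in every library. The whole family took 0.187 ± 0.00110% of the counts. Its summed FPKM rested on few members, since the leading 4 held 65.5% of it. The highest was srh-269, with 759, 659 and 777 FPKM in rep1, rep2 and rep3. This entry alone held 16568, 15040 and 17505 counts. That was 0.0827 ± 0.00527% of the counts, a large part of the 0.187% of the family. The counts and FPKM of srh-269 together imply a length of 1131 bases, against 882 bases of exon (1.28 times). The median was 0.642 times for exon lengths from 700 to under 1000 bases. Whether all these counts belong to srh-269 was not tested, so they are uncertain as its own level and as a share of the family. Next came srw-86 with 347, 401 and 311 FPKM and srb-6 with 307, 273 and 456 FPKM.

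The libraries were not dominated by few transcripts. The 10 most abundant genes of each library took 4.77% of rep1, 4.55% of rep2 and 4.35% of rep3. The leading 100 took 20.3%, 19.8% and 18.4%, and the leading 1000 took 57.6%, 56.9% and 55.9%. It took 695, 719 and 766 genes to reach 50% of the counts in rep1, rep2 and rep3. The order turned further down, where 90% took 4227, 4337 and 4183 genes.

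**Figure D1:**
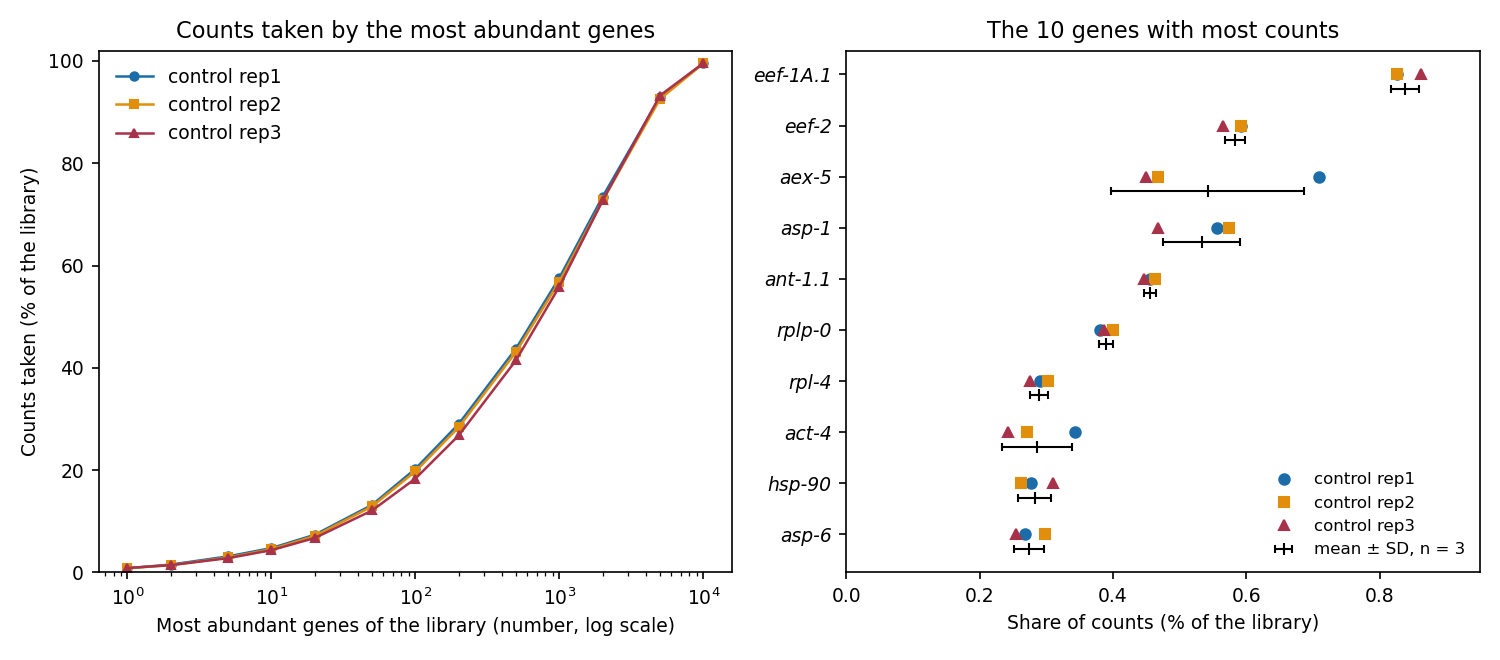
Left, percent of the counts of a library (y axis) taken by its most abundant genes (x axis, log scale) for control rep1, rep2 and rep3. Right, the share of counts of the 10 genes with most counts, with a point for each library and the mean ± SD (n = 3) below the points. The curves lie close together, while aex-5 and act-4 have their highest share in rep1.

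Translation led the list of genes by counts. The most abundant was eef-1A.1, the elongation factor that carries aminoacyl-tRNA to the ribosome, with 165250, 160396 and 171493 counts in rep1, rep2 and rep3. It took 0.837 ± 0.0209% of the counts, and its share in rep1 had an exact 95% binomial interval of 0.821 to 0.829%. eef-2, which moves the ribosome along the mRNA, came next with 118585, 115069 and 112594 counts. The ribosomal stalk protein gene rplp-0 had 76284, 77858 and 76872 counts, and rpl-4, of the large ribosomal subunit, had 58193, 58694 and 54816 counts. No library was the highest in all 4 of these genes.

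The rest of the leading 10 came from protein breakdown, energy supply, muscle and protein folding. The aspartyl protease genes asp-1 and asp-6, which belong to the intestine's cathepsin-like enzymes, took 0.533 ± 0.0572% and 0.274 ± 0.0224% of the counts. The intestinal asp-1 had 111429 counts in rep1, 111642 in rep2 and 93091 in rep3. ant-1.1, a mitochondrial carrier that exchanges ADP for ATP, took 0.455 ± 0.00871%. The actin gene act-4 had 68808 counts in rep1, 52764 in rep2 and 48321 in rep3, and hsp-90, the cytosolic chaperone also called daf-21, had 55515, 50839 and 61654.

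One entry among the leading 10 was annotated as aex-5, a proprotein convertase gene of the intestine and muscle. It held 142032 counts in rep1, 90779 in rep2 and 89628 in rep3 (0.542 ± 0.145% of the counts). Its counts and FPKM together imply a transcript of 7504 bases, whereas the annotated exons of aex-5 add up to 1798 bases. In the WBcel235 assembly aex-5 lies on chromosome I from 14850052 to 14855827, and unc-54, which encodes the main myosin heavy chain of the body wall muscle, begins 74 bases past its end, at 14855901. unc-54 was not analysed here under its own name. Whether the counts of this entry belong to aex-5, to unc-54 or to both cannot be told apart from them, and it is therefore not read as a level of aex-5.

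By FPKM, small ribosomal proteins filled most of the leading places. Among the 25 genes with the highest mean FPKM, 13 belonged to the ribosomal protein list. rpl-37.1 had 15612, 18335 and 15989 FPKM in rep1, rep2 and rep3, and rps-21 had 16347, 17965 and 14263 FPKM. rpl-38 followed with 13430, 15709 and 12867 FPKM from only 1145, 1253 and 945 counts, and rpl-36 with 10897, 11851 and 10047 FPKM. An entry without a name, gene35471, whose closest protein in the authors' annotation is ribosomal protein L39 of Caenorhabditis remanei, had 15443, 20055 and 12390 FPKM. Also among the 25 were fau-1, which encodes ribosomal protein S30 fused to a ubiquitin-like domain, with 9035 ± 498 FPKM, and ubq-2, which encodes ubiquitin fused to a ribosomal protein, with 6845 ± 387 FPKM.

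Other genes with a leading FPKM serve the endoplasmic reticulum, mitochondria and defence. sec-61.G, the gamma subunit of the channel through which proteins enter the endoplasmic reticulum, had 9675, 11911 and 12790 FPKM, but only 472, 529 and 560 counts. Y82E9BR.3, annotated as subunit c of the ATP synthase, had 7769, 7046 and 7265 FPKM. C14B9.10, annotated as a small subunit of the cytochrome bc1 complex, had 7592, 9655 and 7386 FPKM, but only 114, 121 and 91 counts. The saposin-like gene spp-5, of a family whose members include pore-forming antimicrobial proteins, had 7261, 7303 and 6522 FPKM.

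FPKM and counts did not rank the same genes first. The top FPKM belonged to glrx-3, which encodes a protein with a glutaredoxin domain, at 60546, 81067 and 75403 FPKM. Its counts were only 2307, 2427 and 2758, which placed it at rank 1897 by counts. Counts and FPKM of glrx-3 together imply a length of 1.75 bases, against 1163 bases of annotated exon. B0205.12 had 6650 ± 2989 FPKM with 2, 1 and 0 counts, and txt-14 had 9153 ± 5350 FPKM with 38, 37 and 9 counts. For sec-61.G and C14B9.10 the implied lengths were 2.30 and 0.669 bases, against 437 and 361 bases of exon, and for rpl-38 4.02 against 300 bases. The FPKM values of these 6 genes cannot be read as high expression.

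The gap between both measures was widest in short transcripts. Among genes with a mean count of at least 50, the length implied by counts and FPKM had a median of 0.830 times the exon length for exons of 2000 bases or more. The median was 0.642 for exon lengths from 700 to under 1000 bases, 0.271 from 400 to under 500, 0.155 from 300 to under 400 and 0.197 under 300. Of the 23 leading genes with a known exon length, 19 had exons under 500 bases. Ranked instead by counts per kilobase of exon, an ordering chosen after seeing the data, none of the 25 leading genes was shared with the ranking by FPKM and 57 of the leading 100 were. Ribosomal proteins still made up 16 of the 25 by that ranking, which eef-1A.1 and asp-1 led. The FPKM of short transcripts is therefore an uncertain level.

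**Figure D2:**
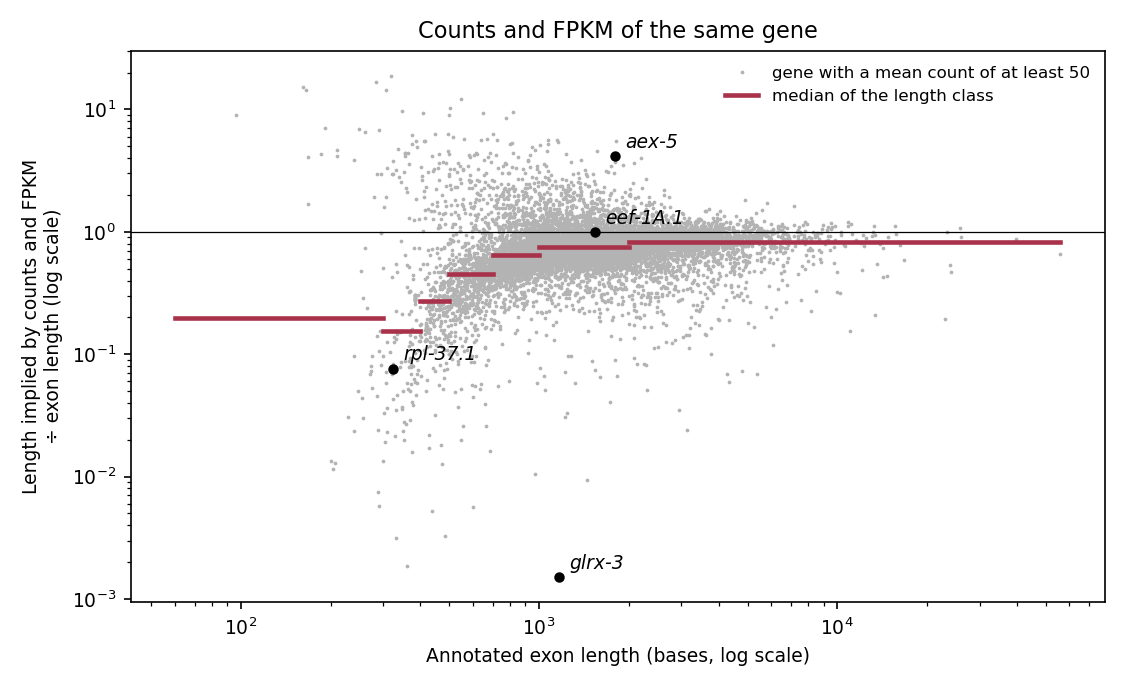
Each point is a gene with a mean count of at least 50 in the control libraries. The x axis is the annotated exon length in bases (log scale), the y axis the length implied by its counts and FPKM divided by the exon length (log scale), and bars are medians of length classes. The medians fall from 0.830 for the longest class to 0.155 from 300 to under 400 bases and stand at 0.197 under 300 bases, and glrx-3 and aex-5 lie far below and above.

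For single genes the 2 measures could also part between libraries. spe-11, a sperm gene whose product the embryo needs after fertilization, had 14.7, 17.4 and 333 FPKM in rep1, rep2 and rep3, while its counts were 300, 376 and 395. K06A4.10, named after its values were seen, had 9574, 256 and 1071 FPKM with 678, 735 and 748 counts. Such genes were few: between rep1 and rep3, FPKM and normalized counts of 51 of 10412 genes (0.490%) were apart by 2-fold or more. The spread between libraries was therefore measured on counts.

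Gene lists drawn up by symbol covered 2872 genes and took 27.8 ± 0.865% of the counts and 38.3 ± 0.589% of the summed FPKM. The ribosomal proteins were the largest list by share. The 73 listed genes took 7.20% of the counts in rep1, 7.95% in rep2 and 7.12% in rep3 (7.42 ± 0.455%), and 22.1 ± 0.411% of the summed FPKM. In 70 of the 73 the mean FPKM was at least 1000. Their median mean FPKM was 4040, against 11.3 over all genes listed. The 31 elongation and initiation factors added 2.18 ± 0.0491% of the counts.

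Cuticle collagens were the next largest list. These genes encode the short triple-helical proteins secreted by the epidermis at each moult. The 151 listed collagens took 4.25%, 4.14% and 3.51% of the counts in rep1, rep2 and rep3, and 148 of them had counts in every library. Collagen counts were concentrated, with 19 genes holding 50% of the list's counts and 74 reaching a mean FPKM of 100. The highest was col-36, at 2553, 1885 and 1006 FPKM. col-158 had 1960, 1425 and 748 FPKM, and col-40 had 1957, 1465 and 550 FPKM. In all 3 of these collagens rep3 was the lowest library, whereas col-160 stayed closer together at 1362, 1257 and 1058 FPKM.

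Muscle, gut and yolk genes were also well represented. Actins, myosins and thin filament proteins took 2.44%, 2.05% and 1.78% of the counts in rep1, rep2 and rep3. Their leading member was mlc-2, a myosin light chain, at 3772, 3388 and 2772 FPKM, and the tropomyosin gene lev-11 had 1762, 1343 and 1277 FPKM. Cathepsin proteases took 1.56 ± 0.183%, led by asp-1 at 5173, 4929 and 4142 FPKM. Among the 196 C-type lectins, secreted or membrane proteins of which many are made in the gut, 134 had counts in every library. The list took 0.806 ± 0.0619%, and clec-63 led it with 2121, 2036 and 1774 FPKM. The 5 vitellogenins, which encode the yolk proteins that the intestine of the adult sends to oocytes, took 0.447%, 0.437% and 0.628%. vit-6 was the highest of them, at 368, 331 and 456 FPKM.

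Energy metabolism was steady between libraries. The 26 nuclear-encoded respiratory chain and ATP synthase genes took 0.747%, 0.756% and 0.746% of the counts, with cox-6B, a cytochrome oxidase subunit, at 2727 ± 66.9 FPKM and cox-6C, another, at 2242 ± 182 FPKM. Citrate and glyoxylate cycle enzymes took 0.611 ± 0.0309% and glycolysis and gluconeogenesis enzymes 0.402 ± 0.0206%. The leading glycolytic gene was gpd-3, a glyceraldehyde 3-phosphate dehydrogenase, with 654, 582 and 619 FPKM. V-ATPase subunits, which acidify lysosomes and drive transport across the gut surface, took 0.515 ± 0.0453%. The 7 desaturase genes and the elongases together took 0.243 ± 0.00415%, and the desaturases fat-2 and fat-6 led with 632 ± 41.9 and 574 ± 70.0 FPKM. The mitochondrially encoded subunits were not analysed here.

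Lipid-binding, chaperone and detoxification genes were also well covered. far-1 and far-2, secreted proteins that bind fatty acids and retinol, had 2925, 2863 and 2393 FPKM and 2432, 2732 and 3942 FPKM in rep1, rep2 and rep3. The chaperone list took 1.16 ± 0.0930% of the counts, led by hsp-90 at 1350, 1276 and 1534 FPKM and hsp-1, a constitutive HSP70, at 1232, 1154 and 1513 FPKM. The small heat shock genes hsp-16.41 and hsp-16.2 were at 971, 686 and 1048 FPKM and at 844, 591 and 805 FPKM. The 155 genes of the GST, UGT and cytochrome P450 families took 0.465 ± 0.0495%, and 152 of them had counts in every library. Their highest member was gst-7, a glutathione S-transferase, at 711 ± 24.9 FPKM.

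Oocyte genes and germ line RNA regulators together took about as much as the chaperones, and sperm and neuropeptide genes took less. The 47 genes of this list took 0.943%, 0.970% and 1.51% of the counts in rep1, rep2 and rep3. Not all of them are RNA regulators, since the list also holds the yolk receptor gene rme-2 and the eggshell gene cbd-1. cey-2, a Y-box RNA-binding protein of the germ line, was at 464, 493 and 887 FPKM, and cgh-1, an RNA helicase that protects stored mRNAs in the germ line, at 429, 425 and 736 FPKM. The 17 listed major sperm proteins, which drive the crawling of nematode sperm, took 0.00884%, 0.0141% and 0.0147%. Their members are near-identical copies, and since the handling of fragments that map to several genes is not given in the sources used here, their counts are uncertain. The 129 neuropeptide and insulin genes took 0.287%, 0.294% and 0.213%. nlp-49 and nlp-36, of the neuropeptide-like protein class, led by FPKM, with 2393, 2798 and 2023 and with 2325, 2583 and 2033. Their counts were only 166, 189 and 131 for nlp-49 and 444, 518 and 380 for nlp-36, so these FPKM values are uncertain as levels.

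**Figure D3:**
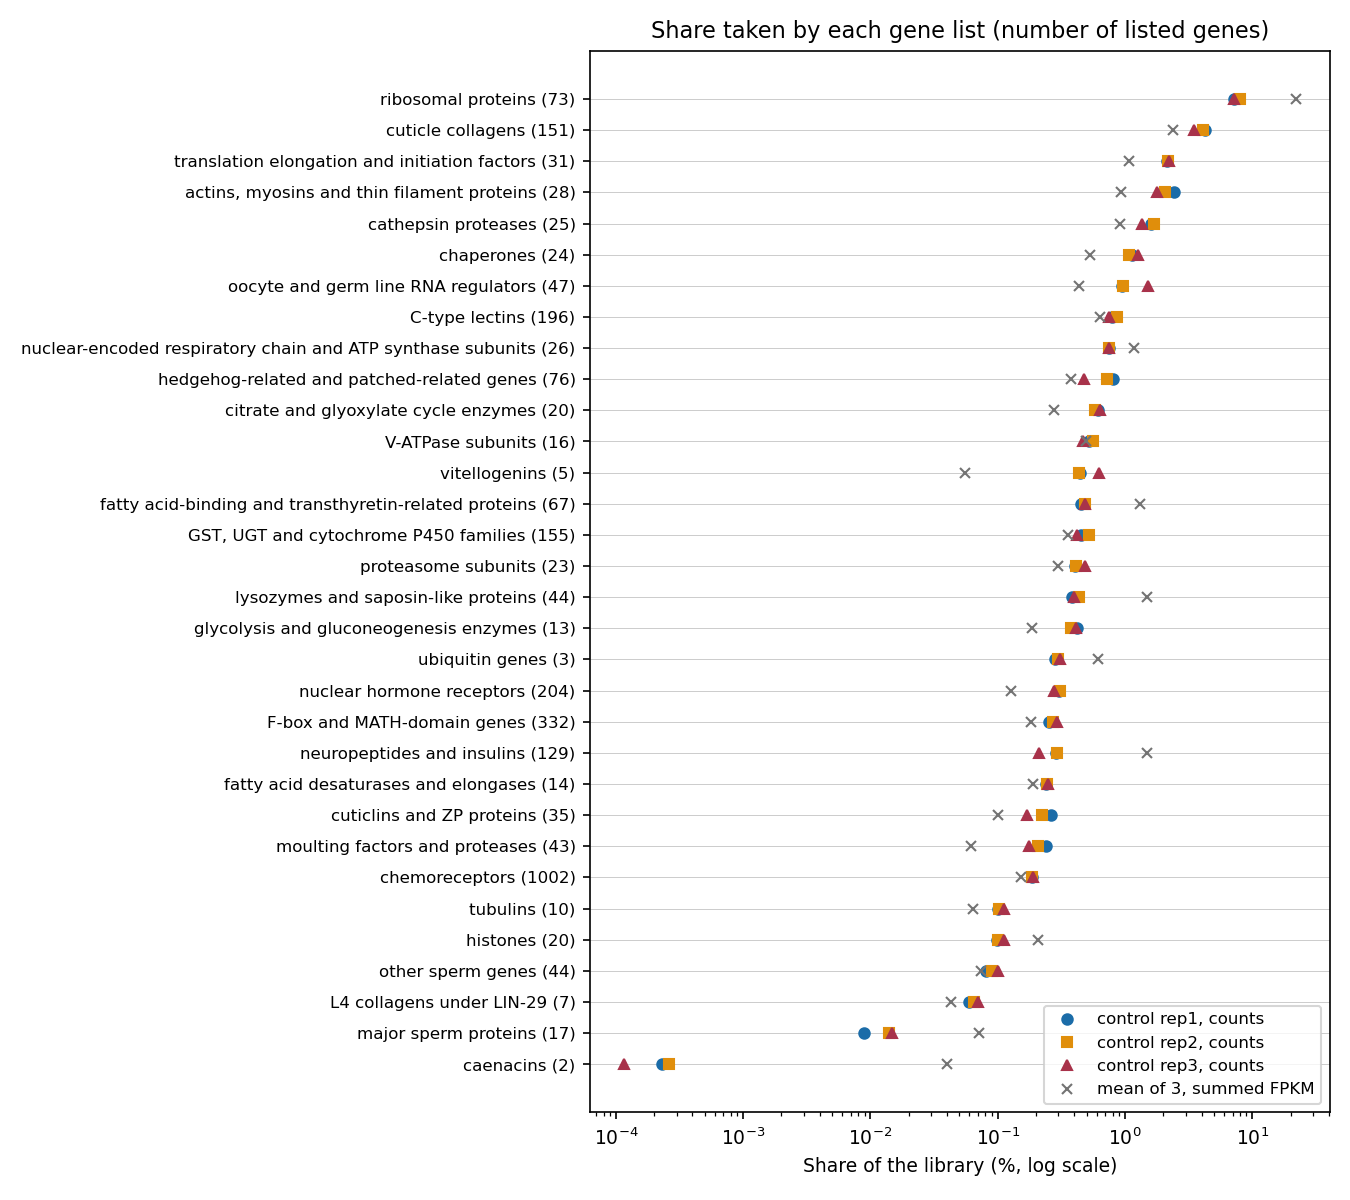
Share of the library taken by each gene list (rows, with the number of listed genes) on a log axis in percent. Coloured points are shares of counts in control rep1, rep2 and rep3, and crosses the mean share of summed FPKM. Ribosomal proteins (7.42% of counts) and cuticle collagens (3.96%) lie highest, and the points of rep3 part from the others for oocyte genes, vitellogenins and hedgehog-related genes.

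The spread between libraries was measured as the ratio of the highest to the lowest normalized count among the 3 libraries, over 10412 genes with a mean count of at least 50. Counts were scaled by TMM (trimmed mean of M-values). The median ratio was 1.33, and 689 genes (6.62%) reached 2-fold or more and 32 genes 4-fold or more. In each of the 689, the exact 95% Poisson intervals of the highest and the lowest count were apart. The minimum count and the 2-fold ratio together already force this, so it is no separate check on counting error. The share was highest at low depth, with 19.3% of genes at 2-fold or more at a mean count of 50 to under 100, 8.70% from 100 to under 500, 2.21% from 500 to under 2000 and 2.37% at 2000 or more.

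Rep3 was one of the extremes in 680 of the 689 genes (98.7%), against 88.2% of all genes measured. It was the lowest library in 496 of them (72.0% of the 689 and 4.76% of genes measured) and the highest in 184 (1.77%). Between rep1 and rep2, 20 genes differed by 2-fold or more (0.192%), against 505 between rep1 and rep3 and 459 between rep2 and rep3. The median absolute log2 ratio was 0.12 between rep1 and rep2, 0.34 between rep1 and rep3 and 0.32 between rep2 and rep3. Without rep3, 18 genes reached 2-fold, and the counts without rep1 and without rep2 were 454 and 496. The biological coefficient of variation that edgeR estimated in common over genes was 0.191 with all 3 libraries and 0.0845 without rep3. Why rep3 stood apart was not tested.

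The list of neuropeptide and insulin genes had a large share of members that differed between libraries. They encode secreted peptides that serve as signals. Of the 79 measured, 24 (30.4%, against 6.62% of all genes) spread 2-fold or more. Rep3 was the lowest library in 21 of these and the highest in 3, against lowest in 72.0% of all genes at 2-fold or more. With RLE size factors in place of TMM, 24.1% of the list spread 2-fold or more. Most of the 24 had a mean count under 500, where more of all genes reached 2-fold. That share was 19.3% at a mean count of 50 to under 100 and 8.70% from 100 to under 500. Rep3 was the lowest at any size of gap in 73 of the 79, against 45.0% of all genes measured. The median log2 deviation from a gene's mean was 0.19 in rep1, 0.29 in rep2 and -0.50 in rep3. The most counted of the 24 were flp-18, an FMRFamide-like peptide gene, with normalized counts of 2672, 2460 and 1283 in rep1, rep2 and rep3, and nlp-18, with 1544, 1696 and 746. ins-34, an insulin-like gene, went the other way with 68.2, 72.9 and 144. These 3 genes were named after their values were seen.

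Most of the neuronal markers fixed for the check of labels were also lowest in rep3. All 9 that were listed had counts in every library, and they summed to 1209, 1189 and 764 FPKM in rep1, rep2 and rep3. Most of this sum came from egl-3, egl-21, sbt-1 and ida-1. egl-3, the proprotein convertase that cuts neuropeptide precursors, was at 217, 203 and 123 FPKM, and egl-21, the carboxypeptidase that trims them, at 301, 300 and 180 FPKM. The synaptic vesicle gene rab-3 had 49.2, 53.8 and 33.9 FPKM. unc-119, a gene expressed throughout the nervous system, was the exception at 25.2, 19.8 and 24.5 FPKM, with no low value in rep3. unc-64 was lower in rep3 only by little, at 48.2, 50.1 and 44.1 FPKM.

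Cuticle genes were the largest group by number. Of 143 collagens measured, 37 (25.9%, against 6.62% of all genes) spread 2-fold or more. Rep3 was lowest in 32 of these and highest in 5, against lowest in 72.0% of all genes at 2-fold or more. col-85 had the largest ratio, 4.0, with normalized counts of 16819, 15231 and 4200 in rep1, rep2 and rep3. col-40 had 40839, 33413 and 12225 and col-36 had 47182, 36270 and 19400. The 5 collagens that were highest in rep3 were col-119, col-178, col-8, col-179 and col-121, named after their values were seen. Of these, col-119 had normalized counts of 13110, 14071 and 28623, and col-178 had 9348, 10559 and 18985. Collagens are close paralogs, and counts of single members are uncertain to that extent.

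Other genes of the cuticle and moult were counted in the same way. Hedgehog-related and patched-related genes encode secreted proteins and receptors of the cuticle-forming epithelia. Of the 58 measured, 12 (20.7%, against 6.62% of all genes) spread 2-fold or more. Rep3 was lowest in all 12, against 72.0% of all genes at 2-fold or more. grl-25 had normalized counts of 38499 in rep1, 30433 in rep2 and 11128 in rep3, and grl-20 had 10567, 9557 and 3840. Of 33 moulting factors and proteases, 8 (24.2%, against 6.62% of all genes) spread 2-fold or more, and 7 of these were lowest in rep3, near the 72.0% of all genes at 2-fold or more. lin-42, the worm's period homologue, which times the larval cycle, had 6009, 4518 and 2876. The L4 collagens under LIN-29 differed from these. None of the 7 reached 2-fold, and their median log2 deviation in rep3 was 0.12. Rep3 was the highest library in 7 of 7 (6 of 7 with upper quartile or total count scaling), against 43.2% of all genes measured.

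Germ line and yolk genes lay the other way. None of the 47 listed oocyte genes and germ line RNA regulators reached 2-fold. Rep3 was still the highest library in 45 of 47, against 43.2% of all genes measured. Their median log2 deviations were -0.27, -0.22 and 0.50 in rep1, rep2 and rep3. The yolk receptor gene rme-2 had 142, 139 and 247 FPKM, and cbd-1, an eggshell chitin-binding protein, had 248, 245 and 438 FPKM. All 5 vitellogenins were highest in rep3, with median deviations of -0.20, -0.20 and 0.48. vit-4 had normalized counts of 1993, 3059 and 5983, a ratio of 3.0, and vit-1 had a ratio of 2.2. The sums of the oocyte markers (1006, 991 and 1722 FPKM) and of the adult stage markers (1190, 1247 and 1865 FPKM) were also highest in rep3, but they hold the same genes: all 6 oocyte markers are on the list of oocyte and germ line regulators, and the adult stage markers are the 5 vitellogenins and col-19. Their part in the spread of the other lists was not tested.

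**Figure D4:**
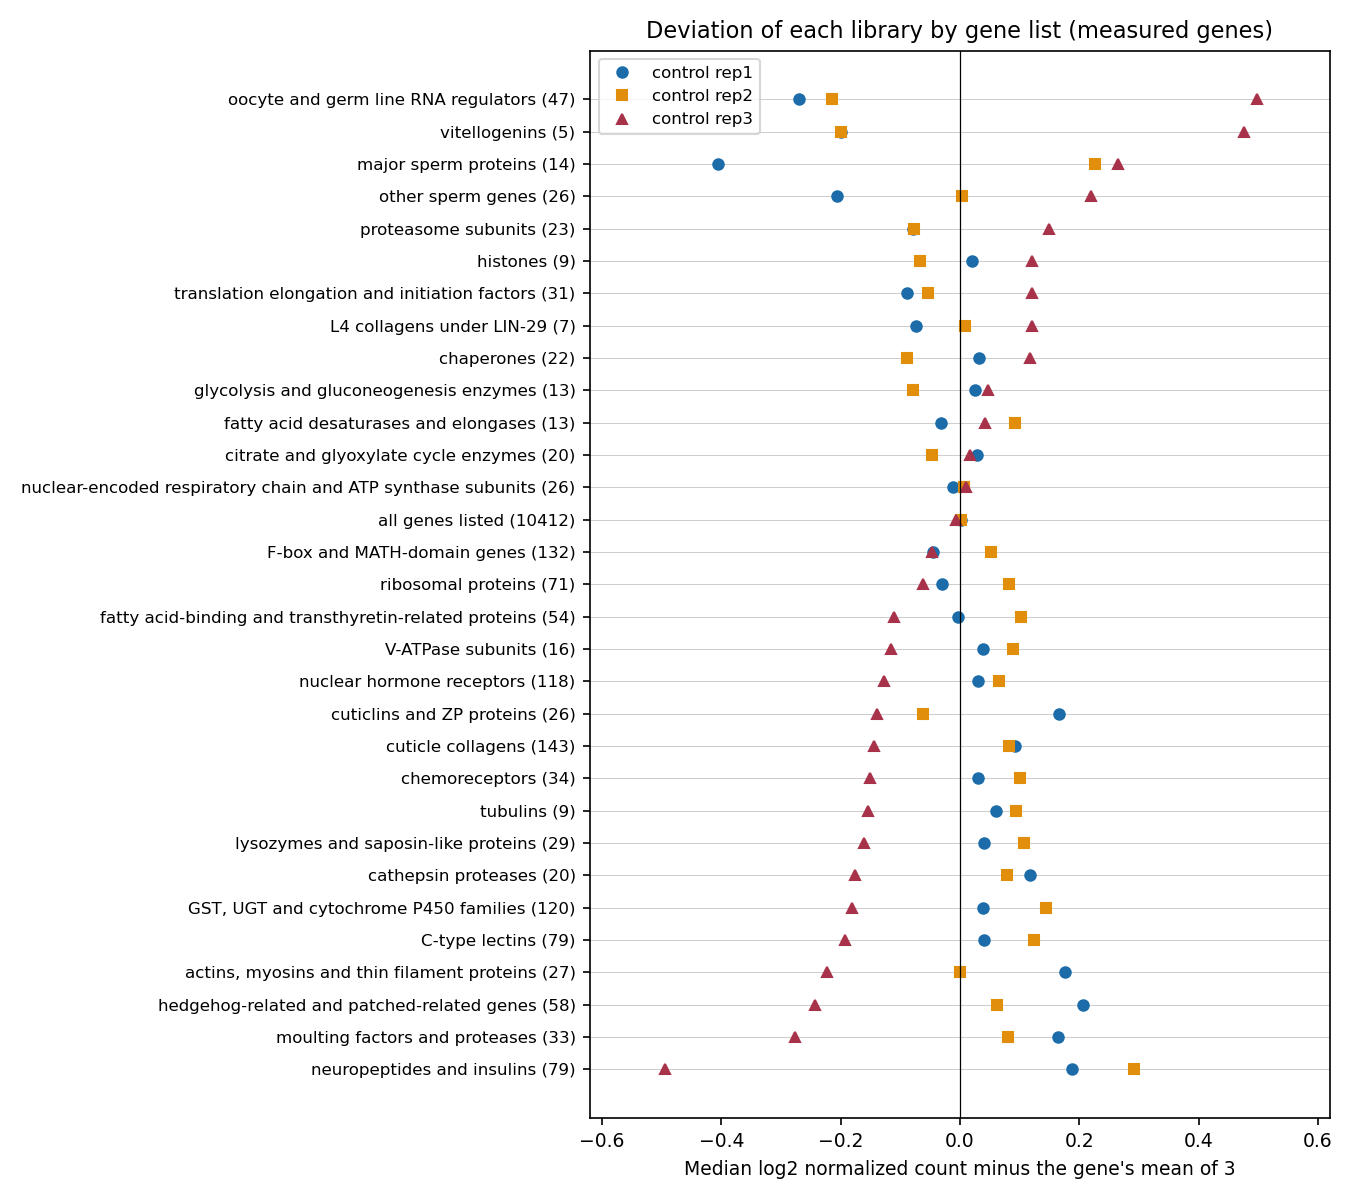
Rows are gene lists with at least 5 measured genes (number in brackets), and the x axis is the median over members of the log2 normalized count minus the gene's mean over the 3 libraries. Points are control rep1, rep2 and rep3. Rep3 lies at 0.50 for oocyte and germ line regulators and at -0.50 for neuropeptides and insulins, while all genes together lie near 0.

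The medians of both sperm lists were lowest in rep1. The median log2 deviation of the 14 major sperm proteins measured was -0.41 in rep1, 0.23 in rep2 and 0.27 in rep3. The leading member, msp-40, had 121, 165 and 168 FPKM, and msp-77 had 104, 128 and 172 FPKM. The 26 other sperm genes had medians of -0.21 in rep1, 0.00 in rep2 and 0.22 in rep3. Rep3 was highest in 20 of them, against 43.2% of all genes measured.

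Gut and defence families also held genes at 2-fold or more. Of 79 C-type lectins measured, 18 (22.8%, against 6.62% of all genes) spread 2-fold or more. Rep3 was lowest in 15 of these and highest in 3, against lowest in 72.0% of all genes at 2-fold or more. clec-47 had normalized counts of 1479, 2128 and 640, while clec-266 had 442, 308 and 858 and clec-222 had 177, 166 and 465. Of 29 lysozymes and saposin-like genes, 6 (20.7%, against 6.62% of all genes) spread 2-fold or more and rep3 was lowest in each, against 72.0% of all genes at 2-fold or more, as for spp-14 with 2072, 2731 and 1295. F-box and MATH-domain genes are a large family of adaptors for protein breakdown. Of 132 measured, 20 (15.2%, against 6.62% of all genes) reached 2-fold or more, with rep3 highest in 15. Among all 689 genes at 2-fold or more, rep3 was highest in 184. Over all 132 there was no such lean. Rep3 was lowest in 60 and highest in 58, against 45.0% and 43.2% of all genes measured, and the median deviation in rep3 was -0.05. Most of the 20 were low in counts, where more of all genes reached 2-fold (19.3% at a mean count of 50 to under 100). The most counted, fbxc-51, named after its values were seen, had 400, 257 and 545.

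The housekeeping lists named here held no gene at 2-fold or more. None of the 71 ribosomal protein genes measured reached 2-fold (median ratio 1.13, largest 1.53), and rep2 was the highest library in 61 of them. The same held at 2-fold for the 31 elongation and initiation factors, 26 respiratory chain genes, 20 citrate cycle enzymes, 16 V-ATPase subunits, 13 glycolysis and gluconeogenesis enzymes and 23 proteasome subunits. Few well-counted genes of any kind reached 2-fold: 2.21% at a mean count of 500 to under 2000 and 2.37% at 2000 or more. At 2000 or more the median ratio was 1.24, and the medians of these lists ran from 1.13 to 1.21. Whether the lists differ from other genes of like depth was not tested. Some of these lists were still ordered. Rep3 was highest in 22 of 23 proteasome genes at a median deviation of 0.15, against 43.2% of all genes measured. It was also highest in 23 of 31 elongation and initiation factors, and lowest in 13 of 16 V-ATPase subunits (against 45.0%). Of 118 nuclear hormone receptors measured, 1 reached 2-fold (0.848%, against 6.62% of all genes). That gene was nhr-246, whose domains in the authors' table are kinase-like.

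The 20 genes with the largest ratios among 9043 with a mean count of at least 100 ran from 10.1 to 4.0, and the next ratio below them was 3.88. Rep3 was the lowest library in all 20, and rep1 the highest in 17. D1086.9 led, with normalized counts of 624, 419 and 61.9 in rep1, rep2 and rep3. Next were Y59A8B.19 with 291, 154 and 32.9 and Y59A8B.26 with 436, 252 and 51.9. None of these 3 genes carries a domain annotation in the authors' table. The saposin-like gene spp-11 followed with 452, 279 and 68.9.

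Genes with a family annotation among the 20 included secreted proteins, enzymes and the collagen col-85 described above. scl-12, scl-13 and scl-11, of the cysteine-rich secretory protein family, had normalized counts of 2377, 1269 and 453, of 1113, 689 and 247, and of 906, 571 and 183 in rep1, rep2 and rep3. The C-type lectin clec-59 had 132, 169 and 33.9. kin-34, annotated with a protein kinase domain, had 1036, 733 and 183. Y50E8A.6, annotated as a FAD-dependent oxidoreductase, had 5194, 4150 and 1071. Its counts and FPKM imply a length of 8728 bases, against 2189 bases of exon, so these counts are uncertain as its own level. nhr-246 had 169, 116 and 34.9. It is named as a nuclear hormone receptor, but the domains in the authors' table are kinase-like. F57F4.2, T26C12.2, H39E23.3 and EGAP4.1, which have no domain annotation, had ratios of 6.48, 5.88, 4.77 and 4.25.

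Several of these genes lie side by side on chromosome V (WBcel235). D1086.9 (14104270 to 14106330) and H39E23.3 (14107811 to 14110051) are 1481 bases apart. Y59A8B.19 (18007230 to 18007871) and Y59A8B.26 (18009980 to 18010837) are 2109 bases apart, and scl-13 (3810785 to 3811641) and scl-12 (3812591 to 3813437) are 950 bases apart. Of the 16 genes of the 20 that have a name, 10 lie on chromosome V, which holds 20.2% of the measured genes with a name. Neighbours with like sequence share the uncertainty of paralogs.

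**Figure D5:**
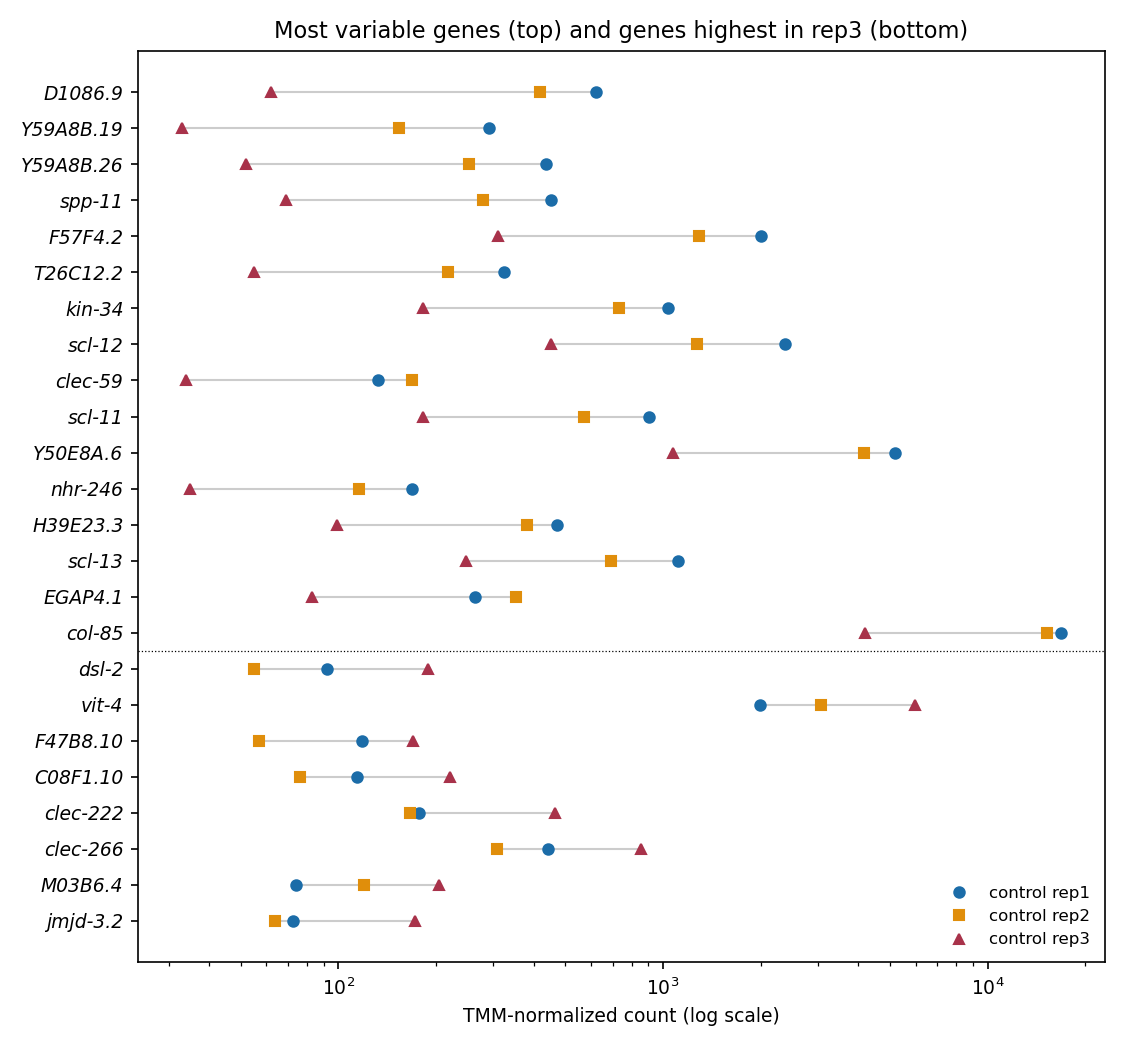
Normalized counts (x axis, log scale) in control rep1, rep2 and rep3 of the 16 named genes among the 20 with the largest ratio (above the dotted line) and of the 8 leading genes that were highest in rep3 (below it). A grey line joins the lowest and highest library. Rep3 lies lowest in each gene above the line, and the largest ratio below it is 3.43.

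Genes that were highest in rep3 had smaller ratios. The largest was that of dsl-2, which encodes a Notch ligand of the Delta and Serrate type, with normalized counts of 92.3, 55.0 and 189 in rep1, rep2 and rep3 (ratio 3.43). vit-4 came next, and F47B8.10, annotated as a transporter of the major facilitator superfamily, had 118, 57.0 and 170. The leading genes among those highest in rep2 were lowest in rep3, as EGAP4.1 with 263, 352 and 82.8 and hsp-12.6, a small heat shock protein gene, with 632, 648 and 193. Among genes lowest in rep1, cyp-14A3, a cytochrome P450 gene, was the only one of the leading 4 that rep2 and not rep3 headed, with 2.22, 5.79 and 5.46 FPKM.

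The smallest ratios among the 500 genes with most counts belonged to rps-6, of the small ribosomal subunit, with normalized counts of 21797, 21820 and 21866 in rep1, rep2 and rep3. The other 4 had ratios of 1.01. These were pigq-1, whose product is annotated as a component of the first enzyme of GPI anchor synthesis, trap-1, the alpha subunit of a complex at the protein channel of the endoplasmic reticulum, R02D5.6, which has no domain annotation, and crt-1, the calcium-binding chaperone calreticulin. crt-1 had 30986, 30650 and 30547. The counts and FPKM of pigq-1 imply a length of 1318 bases, against 902 bases of exon (1.46 times). The median was 0.642 times for exon lengths from 700 to under 1000 bases, so its counts are uncertain as its own level.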

How the data were processed

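Whole-body RNA of untreated L4 worms was read from 3 libraries. Per the authors' methods, reads were cleaned of ribosomal RNA, adapters and poor or short sequence before TopHat placed them on WBcel235, and FPKM values came from Cufflinks. The deposited table holds, for each gene and library, an unnormalized count and an FPKM value. The counting tool and its use of strand and of fragments mapping to several genes are not given in the sources used here, so overlapping genes and close paralogs are uncertain. Columns of the authors' own comparisons (FDR, log2 fold change and calls, for which the headers name EBSeq) were not used, nor were the tables of genes that the authors had called.

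Names came from the protein annotation in the table and the study's supplementary gene names, resolved through RefSeq and Ensembl tables of WBcel235. Of 16196 entries, 15273 were named and 923 kept their ID, 411 of them assembled by the authors. Both sources named 1336 entries, with the same gene in 98.8%. Names out of place along the genome (46 of 15387 checked) or used before (68) were not used. Exon lengths are the union of annotated exons.

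edgeR 4.0.16 in R 4.3.3 was used for the counts (TMM factors and common dispersion of 3 libraries) and Python 3.11.15 for the rest, with numpy 2.4.6, pandas 2.3.3 and scipy 1.17.1. The spread was measured in genes with a mean count of at least 50, with lowest counts under 3 set to 3. The steps were tested on simulated data. Genes named are the 25 highest by FPKM and the 10 highest by counts, the leading 4 of each of 33 lists, the 20 largest ratios with a mean count of at least 100, the leading 4 for each library that was highest or lowest, and the 5 smallest ratios among the 500 most counted. Members of 3 lists (vitellogenins, L4 collagens and mitochondrially encoded subunits) could all be named. Other genes were named after their values were seen. The libraries and gene lists were chosen with earlier results of these data known. Alternatives were other scalings, FPKM in place of counts, other minimums and leaving out each library.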

Additional observations from a re-analysis of the deposited data

How the results depend on the processing

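The number of detected genes stayed within 1.5 times of 13919 at each minimum tried (12118 to 15442). The share of the 10 leading genes was 4.47% of counts, 4.36 to 4.58% without each library in turn, and 11.8% of the summed FPKM for the 10 leading by FPKM. The share of all lists was 27.8% of counts, 27.4 to 28.2% without each library, and 38.3% of summed FPKM. The cause of these gaps was not tested. The 689 genes at 2-fold or more became 677 with RLE size factors, 719 with total counts, 735 with upper quartile scaling and 735 on FPKM. They became 2355 with no filter on low counts, 128 with a mean count of at least 500 and 32 at a ratio of 4 or more, and 18 to 496 without each library. The 13 lists above the share of all genes were 2 to 13 without each library, the 2 being those left without rep3. On FPKM, 1 of the 20 largest ratios moved, that of EGAP4.1, to 3.07 in place of 4.25. No scaling moved the median of all genes by 0.1 on the log2 scale in any library. The sign of a list's median in rep3 turned only for citrate and glyoxylate cycle enzymes (0.02 with TMM, -0.02 with upper quartile) and respiratory chain genes (0.01 and -0.02). No paired analysis was possible because one group was described and its values come from no test. The depth limits what can be said of genes with few counts, and 3 libraries are too few to call one an outlier.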

Other observations

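Domain annotations in the authors' table add families that the gene lists did not cover. The 50 genes with a CUB-like domain, many of them secreted, took 0.892%, 1.11% and 0.654% of the counts in rep1, rep2 and rep3, with 6 of 43 measured genes (14%, against 6.62% of all) at 2-fold or more and rep3 lowest in each, against 72.0% of all genes at 2-fold or more. mbug-1, which carries this domain, was the eleventh gene by counts, with 55263 in rep1, 65837 in rep2 and 40243 in rep3. The 54 genes with an immunoglobulin I-set domain, as in the giant proteins of muscle, took 1.22%, 0.944% and 0.844%. The 58 genes with a helicase C-terminal domain took 1.01%, 0.997% and 1.22%, and none of them reached 2-fold.

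By chromosome, the named genes of III had the highest median FPKM (24.7) and those of V the lowest (5.65). Chromosome V held 25% of the named genes and 16.5 ± 0.218% of the counts, and 8.27% of its genes had no count in any library, against 1.55% on chromosome III. The share of measured genes at 2-fold or more was 9.55% on V and 3.43% on III. Chromosome X took 11.1 ± 0.828% of the counts with 14.7% of the named genes, and 5 of the 100 highest FPKM values. The 411 entries that the authors assembled took 0.432 ± 0.0532% of the counts, and 512 other entries without a name took 2.98 ± 0.180%.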
